A study of Bos taurus with 25 samples.

Results

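The liver arrays of cows injected with vitamin B12, with or without folic acid, were compared with the liver arrays of cows that received no B12. The comparison took 12 of the 25 arrays of the series, 6 with B12 (groups B12 and B9 + B12) against 6 without (groups Ctl and B9), and every gene on the array was described. The other 13 arrays were of mammary gland.

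Multiparous Holstein cows received weekly intramuscular injections of 5 mL, over a period that began before calving and ran into lactation. The Ctl cows (42, 43 and 51) received saline, the B9 cows (39, 41 and 57) 320 mg of folic acid as pteroylmonoglutamic acid, the B12 cows (36, 37, 40 and 52) 10 mg of vitamin B12 as cyanocobalamin, and the B9 + B12 cows (32 and 38) both doses. Hepatic tissue was taken by biopsy 64 ± 3 days after calving, and each array held the RNA of 1 cow, so the p-values below measure the spread between cows. The B9 + B12 group had 2 liver arrays because, per the series' notes, the array of cow 31 was not included. The values are log2 intensities, on which a difference of 1 is 2-fold, and no probe was dropped for a low value. The genes that define hepatocytes were bright on every array, with a mean over 15 of them between 17.40 and 17.61, and albumin (ALB) read 18.14 to 18.41.

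The arrays of cow 57 (B9) and cow 32 (B9 + B12) stood apart from the rest. Their median correlations with the other liver arrays were 0.9718 and 0.9728, against 0.9886 to 0.9921 for the other 10, and they correlated with each other at 0.987. Their median signals were also the lowest, at 82.04 and 77.09 against 110 or more. Some values are also given without both arrays, which leaves B9 + B12 with cow 38 alone.

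Vitamin B12 is the cofactor of methionine synthase (MTR), which passes the methyl group of folate to homocysteine, and of methylmalonyl-CoA mutase (MMUT), which brings propionate into the citric acid cycle. Ruminant liver makes most of its glucose from propionate absorbed from the rumen, so the mutase step carries much of its carbon. Folic acid supplies the folate whose methyl group the first of these enzymes hands on.

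No gene passed the test for any B12 against no B12 when folic acid was held as a covariate. With limma over 43653 probes, 0 probes reached an adjusted p of 0.05 with at least a 2-fold difference (0% of probes), the smallest adjusted p was 1, and 1032 probes (2.36%) had an unadjusted p under 0.05. Without B9 cow 39 the smallest adjusted limma p was 0.000396, at a difference under 2-fold, so that the count of calls remained 0. The Cyber-T test that the methods used, run on 6 arrays against 6, called 3 of 27841 genes (0.0108%), all lower with B12. These were MT1A, LOC613358 and the transcript ENSBTAT00000046462. Taken gene by gene at its brightest probe, 458 genes were higher at an unadjusted p under 0.05 (1.65%) and 232 lower (0.833%), and 27 of these 690 differed by at least 2-fold. All 6 arrays with B12 lay above all 6 without in 21 genes (0.0754%) and below them in 15 (0.0539%).

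The question of which differences held with and without folic acid rested on a pair of contrasts that share no array. B12 against Ctl gave the difference without folic acid, and B9 + B12 against B9 gave it with folic acid. Without folic acid 920 probes (2.11%) and 557 genes (2%) had an unadjusted p under 0.05 by limma, and with it 2112 probes (4.84%) and 1255 genes (4.51%). Cyber-T called 29 genes (0.104%) without and 8 (0.0287%) with folic acid, and shared between them were LOC613358 and MT1A, 6.9% of the first list and 25% of the second. Across 27841 genes the pair was nearly unrelated, with a Pearson correlation of -0.039 and a Spearman correlation of -0.0614, a description over genes that are not independent of each other. Without cows 57 and 32 these were -0.0779 and -0.158. At least a 2-fold difference the same way in both was found for 15 genes (0.0539%) and the opposite way for 11 (0.0395%). An unadjusted p under 0.05 the same way in both was found for 34 genes (0.122%) and the opposite way for 42 (0.151%), and without cows 57 and 32 for 76 and 94. Genes whose B12 arrays lay wholly on 1 side of Ctl, and whose B9 + B12 arrays lay on the same side of B9, numbered 47 higher (0.169%) and 44 lower (0.158%), against 110 (0.395%) that lay on opposite sides. Of those 91, 81 differed by less than 1.5-fold and 4 by 2-fold or more. With cows 57 and 32 left out, 1 B9 + B12 array is set against 2 B9 arrays. A lone array lies apart more easily, so counts of genes lying apart cannot be compared with that fit.

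**Figure D1:**
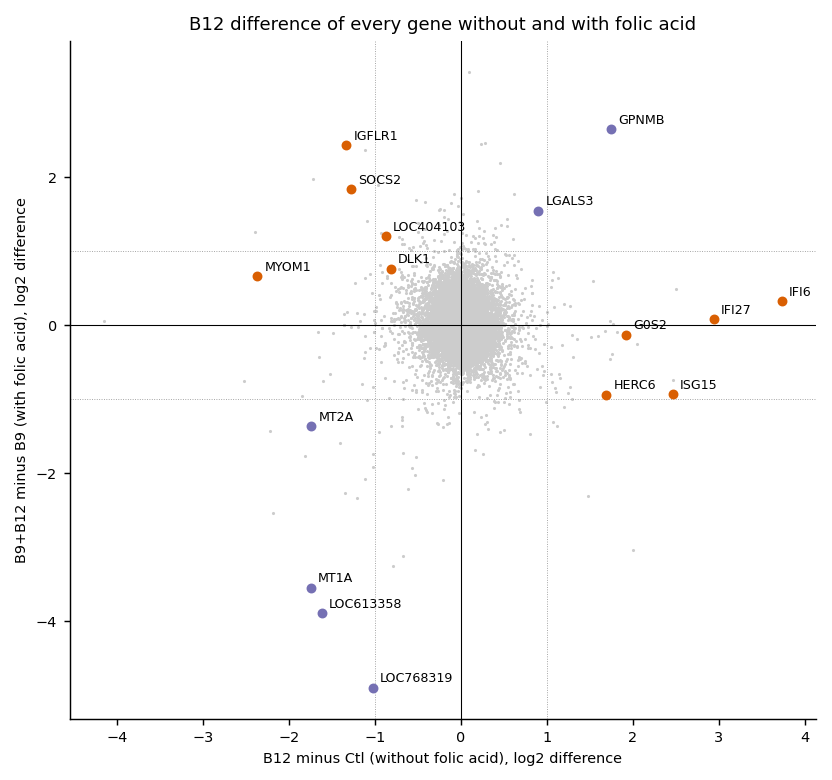
Log2 difference of every gene for B12 minus Ctl (horizontal) against B9 + B12 minus B9 (vertical), 1 point a gene at its brightest probe, with dotted lines at 2-fold. The cloud has little slope, the metallothioneins sit low on both axes and GPNMB and LGALS3 high on both, and IFI6 lies at 3.73 on the horizontal axis and 0.32 on the vertical.

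Metallothionein genes had the 3 largest differences among the genes at least 2-fold lower with B12 in both contrasts. Metallothioneins are small cysteine-rich proteins that bind zinc and copper, and the liver makes them in response to zinc, glucocorticoids and inflammation. MT1A read 17.02, 17.81 and 17.73 in Ctl cows 42, 43 and 51 and 16.11, 16.82, 15.51 and 14.65 in B12 cows 36, 37, 40 and 52. It read 17.10, 17.64 and 18.73 in B9 cows 39, 41 and 57 and 15.33 and 13.24 in B9 + B12 cows 32 and 38. All 6 arrays with B12 thus lay below all 6 without, and cow 38 was the lowest. The means were 17.67 ± 0.62 without B12 and 15.28 ± 1.24 with it (SD, n = 6 each). The fitted difference was -2.48 (SE 0.53, 95% interval -3.65 to -1.32), with a limma p of 0.00068 and an adjusted p of 1. It was -1.75 without folic acid and -3.54 with it, and these did not differ past an unadjusted limma p of 0.095.

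LOC613358, listed in RefSeq with the synonym MT1E, followed the same order. Its arrays read 16.84, 17.41 and 17.17 in Ctl, 15.45, 16.90, 14.96 and 14.79 in B12, 17.57, 17.33 and 18.06 in B9, and 14.80 and 12.73 in B9 + B12. Only B12 cow 37 reached into the range of Ctl. The difference was -2.55 (SE 0.53, 95% interval -3.73 to -1.37), with a limma p of 0.0006 and an adjusted p of 1. It was -1.62 without and -3.89 with folic acid, and the test of the interaction gave an unadjusted limma p of 0.028 and an adjusted p of 1.

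LOC768319, also a metallothionein by its synonyms, differed mainly where folic acid was given. It read 11.85, 13.50 and 12.93 in Ctl and 11.68, 12.95, 11.43 and 10.88 in B12, where the groups overlap. With folic acid it read 15.63, 13.45 and 15.88 in B9 and 10.57 and 9.61 in B9 + B12, where they lie far apart. The difference was -1.03 without folic acid and -4.89 with it, with an interaction p of 0.0047 by limma and an adjusted p of 1. Leaving out cows 57 and 32, its difference for any B12 moved from -2.62 to -2.08, while MT1A moved from -2.48 to -2.40 and LOC613358 from -2.55 to -2.46.

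MT2A, the other main hepatic metallothionein, read 13.90, 14.49 and 14.09 in Ctl and 11.67, 13.55, 13.03 and 11.43 in B12. It read 12.46, 13.58 and 15.44 in B9 and 13.87 and 11.06 in B9 + B12, so the B12 arrays lay below Ctl but the groups with folic acid overlapped. Its difference was -1.58 (SE 0.62, 95% interval -2.94 to -0.223). The probes of these genes may share signal from near-identical copies, which was not tested, so the 4 values should not be counted as 4 separate measurements.

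Arrays with and without B12 also lay on the same slides, and the differences within slides are descriptions, since their sign partly follows from the separation above. Cow 40 minus cow 51, cow 37 minus cow 43, and cow 38 minus cow 57 differed by -2.22, -0.989 and -5.49 for MT1A. The corresponding differences were -2.21, -0.511 and -5.32 for LOC613358. For LOC768319 they were -1.50, -0.552 and -6.27.

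The genes of zinc handling around the metallothioneins differed by less. The list of metallothioneins and zinc transporters had 13 of its 15 members on the array. Of these, 0 were higher and 4 lower at an unadjusted p under 0.05, against 1.65% and 0.833% of all genes, and the 4 were the genes above. The list's median difference was -0.0493 against 0.00668 over all genes. MTF1, the zinc-sensing transcription factor of metallothionein genes, differed by -0.01, and SLC39A4, a zinc importer of the gut, by 0.38, with an unadjusted limma p of 0.060, and by 0.20 without cows 57 and 32. The zinc importer SLC39A14 differed by -0.11 and SLC30A10, a manganese exporter of the same family as the zinc exporters, by -0.08. MT3 differed by 0.14, and MT4 was not well above background on any array. The mean over the list ran from 10.64 to 11.23 on the arrays without B12 and from 9.73 to 10.63 on those with it.

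**Figure D2:**
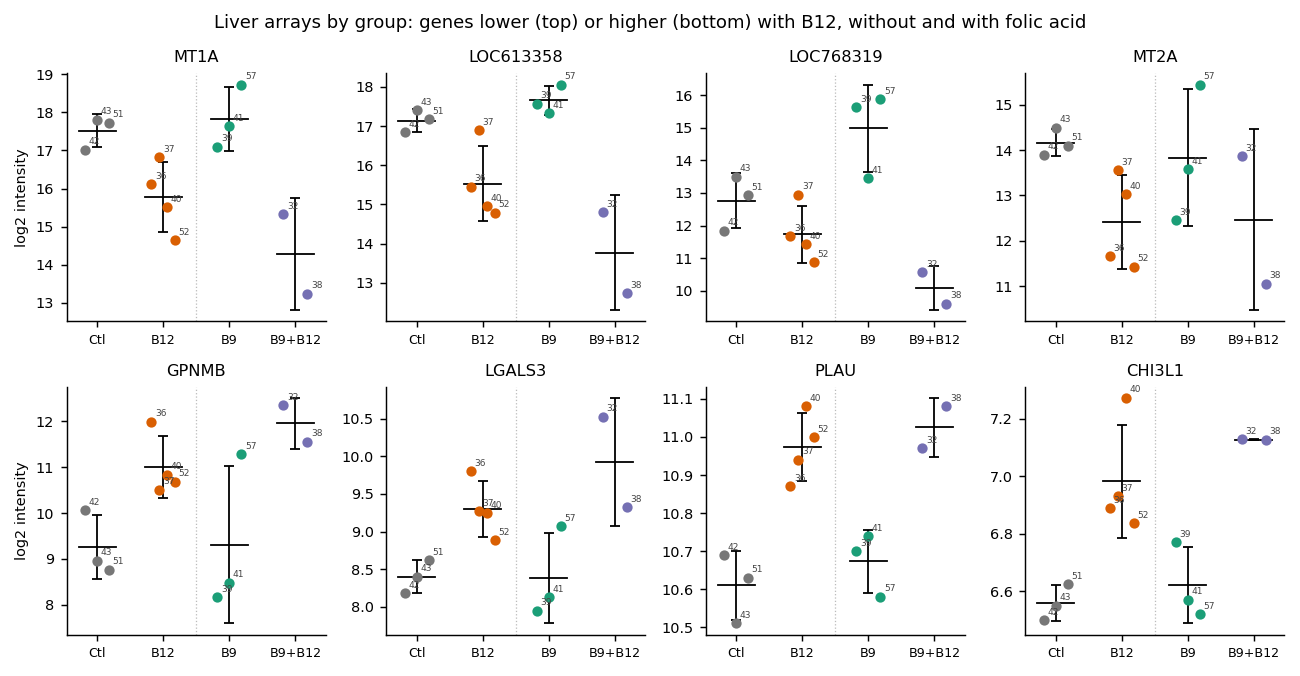
Log2 intensity of 8 genes on each of the 12 liver arrays, by group and labelled with the cow number, with a bar at the group mean and a whisker of 1 SD. In the upper panels the metallothionein group means are lower with B12 on both sides of the dividing line, and in the lower panels GPNMB, LGALS3, PLAU and CHI3L1 are higher.

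GPNMB was the one gene at least 2-fold higher with B12 in both contrasts. It encodes a transmembrane glycoprotein of lysosomes and melanosomes that lipid-loaded and phagocytic macrophages make in quantity. It read 10.06, 8.96 and 8.76 in Ctl, 11.99, 10.51, 10.84 and 10.68 in B12, 8.16, 8.48 and 11.29 in B9, and 12.35 and 11.56 in B9 + B12. In both contrasts every array with B12 lay above every array without, but B9 cow 57 lay above 3 of the 4 B12 cows. The means were 9.29 ± 1.18 and 11.32 ± 0.76 (SD, n = 6 each). The difference was 2.12 (SE 0.54, 95% interval 0.928 to 3.31), 1.75 without folic acid and 2.65 with it. The interaction gave an unadjusted limma p of 0.44. A second probe gave 2.07, and without cows 57 and 32 the difference was 2.13. The pairs on shared slides differed by 2.08, 1.56 and 0.276.

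LGALS3, galectin-3, a galactoside-binding lectin that macrophages secrete, was higher with B12 as well. It read 8.18, 8.40 and 8.62 in Ctl and 9.80, 9.27, 9.24 and 8.89 in B12. It read 7.95, 8.12 and 9.07 in B9 and 10.53 and 9.33 in B9 + B12, so the groups lay apart in both contrasts. The difference was 1.17 (SE 0.27, 95% interval 0.571 to 1.76), 0.90 without and 1.55 with folic acid.

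Other macrophage genes differed by smaller amounts. SPP1, osteopontin, differed by 0.39, and this lay in the contrast without folic acid (0.60) rather than with it (0.09). Its interaction p was 0.027 by limma, with an adjusted p of 1. CD14, the endotoxin co-receptor, differed by 0.32, with cow 32 at 14.09, and by 0.16 without cows 57 and 32. The defining markers differed little, with CD163 at -0.22, the scavenger receptor MSR1 at -0.06, CSF1R at 0.07, CD68 at 0.09, C1QA at 0.05, C1QB at 0.06, CD5L at -0.06 and VSIG4 at 0.25. Of 20 macrophage genes found, 4 were higher (1.65% over all genes) and 0 lower, with a median of 0.0632. Without cows 57 and 32, 3 were higher (1.94% over all genes in that fit) and 1 lower (1.59%), with a median of 0.00787. In a biopsy, fewer cells of a type and less RNA per cell cannot be told apart, and the part that macrophages take in the GPNMB and LGALS3 values was not tested.

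Beside these, most genes on the same side in both contrasts differed by small amounts. Some transcripts without a symbol differed by more, such as ENSBTAT00000025923 at -0.947. The genes were chosen for lying apart in both, so their values are a description with no test. The 10 largest in each direction with a gene symbol included MT1A, GPNMB and LGALS3, and transcripts without a symbol are not described here. Of these 20, 17 differed by less than 1.5-fold, and the sizes ran from 0.19 to 2.48. The sizes of dim probes depended on the processing. Over all settings run, CHI3L1 ran from 0.229 to 1.09, PRSS35 from 0.277 to 1.05 and LOC615514 from -1.13 to -0.277. PLAU, urokinase, the plasminogen activator, read 10.51 to 10.74 on the 6 arrays without B12 and 10.87 to 11.08 on the 6 with it. All arrays with B12 lay above all others within a spread of less than 1 unit, and the difference was 0.36 without and 0.35 with folic acid. The other probes of PLAU differed by -0.00977 and 0.107.

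CHI3L1, a chitinase-like protein of macrophages and stellate cells, read 6.50, 6.55 and 6.62 in Ctl, 6.89, 6.93, 7.27 and 6.84 in B12, 6.77, 6.57 and 6.52 in B9, and 7.13 and 7.13 in B9 + B12. Its 6 arrays with B12 also lay above the other 6. The difference was 0.46 (0.43 without and 0.51 with folic acid), and its other probes differed by 0.0243 and 0.203. IGFBP3, the main carrier of insulin-like growth factors in blood, was higher by 0.37 (0.36 and 0.37, the latter 0.16 without cows 57 and 32), and its 4 other probes by 0.262 to 0.435. THEM4, a mitochondrial thioesterase, was higher by 0.40 and PTGER4, a prostaglandin E2 receptor, by 0.54. PTGER4 differed by 0.36 without and 0.79 with folic acid. TAGAP, a T cell GTPase activator, was higher by 0.38, MS4A8 by 0.35 and PRSS35 by 0.35. The other probes, 2 for each gene, differed by -0.0948 and 0.169 for PTGER4, by -0.00434 and 0.0207 for TAGAP, and by 0.0238 and 0.0457 for MS4A8.

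On the lower side, CDO1, cysteine dioxygenase, which starts cysteine catabolism, differed by -0.34 (-0.27 and -0.43). ITIH4, a plasma protein of the acute phase, differed by -0.35 (-0.32 and -0.41, the latter -0.66 without cows 57 and 32), and its other probe by -0.884. AASS, the first enzyme of lysine breakdown, differed by -0.32 and NFU1, an iron-sulfur cluster scaffold of mitochondria, by -0.30. LOC615514 differed by -0.35, SLC35E3 by -0.21, KLHL41 by -0.20, TMTC1 by -0.19 and HRC by -0.19. The other probes differed by -0.18 and 0.0115 for SLC35E3, by -0.0416 for KLHL41, by -0.106 for TMTC1 and by -0.227 for CDO1. PRSS35, like PTGER4, differed by more with folic acid (0.54) than without it (0.21).

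Of the 15 genes with a 2-fold difference the same way in both contrasts, 14 were lower, 9 had a current symbol, and 2 lay wholly apart in both. Besides the metallothioneins and GPNMB these were C4H7orf57 (-2.19 without and -2.54 with folic acid), the trypsinogen PRSS2 (-2.22 and -1.43, and -2.22 with folic acid without cows 57 and 32), the plasma glutathione peroxidase GPX3 (-1.82 and -1.77) and SLC22A9, an organic anion transporter (-1.09 and -1.01). C4H7orf57 was well above background on 1 of 2 B9 + B12 arrays, and its difference with folic acid was -3.45 without cows 57 and 32. PRSS2 was well above background on 1 of 4 B12 arrays and 1 of 2 B9 + B12 arrays, so its size is uncertain. GPX3 showed how wide these can be, at 13.12 ± 1.28 without and 11.29 ± 1.68 with B12 (SD, n = 6 each) and an unadjusted limma p of 0.056. IGFBP1, an insulin-suppressed IGF carrier, and FADS2, the delta-6 desaturase, were among the 11 with opposite differences, at -1.72 and 1.98 for IGFBP1 and -1.12 and 2.37 for FADS2. Without cows 57 and 32 the difference with folic acid was 3.11 for IGFBP1 and 0.59 for FADS2, which is under 2-fold.

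Of the 34 genes with an unadjusted p under 0.05 the same way in both contrasts, 21 were higher and 13 lower, and without cows 57 and 32 there were 76 such genes. The 4 that follow are named after their values were seen. ADM, the vasodilator adrenomedullin, differed by 0.53 without and 0.86 with folic acid. CD83, a marker of activated antigen-presenting cells, differed by 0.50 in both, and RGS1, a regulator of G protein signalling in leukocytes, by 0.46 and 0.44. The adenosine receptor ADORA2B differed by 0.32 and 0.29. Without cows 57 and 32 the difference with folic acid was 0.79 for CD83 and 0.19 for ADORA2B.

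Most genes of B12 handling differed by small amounts. AMN had the largest difference of the list, at -0.485 (95% interval -1.59 to 0.616), and its other probe differed by -0.125. Of 17 genes of B12 transport and cofactor synthesis found, 0 were higher and 0 lower at an unadjusted p under 0.05, with a median of -0.0845. Over all genes 1.65% were higher and 0.833% lower, so a count of 0 in a list of this length, or in the lists of the next paragraph, is near the background. MTR differed by 0.08 (95% interval -0.126 to 0.292), MMUT by -0.33 (-0.891 to 0.236, and -0.17 without cows 57 and 32) and TCN2, the plasma B12 carrier, by 0.08 (-0.224 to 0.377). MMAA, which loads B12 onto the mutase, differed by -0.34 without and 0.07 with folic acid.

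The 20 genes of the folate cycle had 0 higher and 0 lower, with a median of 0.0113. Of 14 genes of the methionine cycle 1 was lower, CDO1 (0.833% over all genes), and the median was -0.108. BHMT, which remethylates homocysteine from betaine, differed by -0.39 (-0.857 to 0.0823), MAT1A, the liver's S-adenosylmethionine synthetase, by -0.26 and CBS, the entry to transsulfuration, by -0.26, with an unadjusted limma p of 0.052. Among 17 genes of gluconeogenesis and propionate use 0 were higher and 0 lower, with a median of 0.000595, and PCK1 differed by 0.10 and PC by -0.04. FBP2, a fructose bisphosphatase, had the widest value, at -1.13 (95% interval -3.07 to 0.811), and -0.06 without cows 57 and 32. In the fit without both arrays (1.94% of all genes higher and 1.59% lower at an unadjusted p under 0.05), 3 methionine cycle genes and 1 gene of B12 transport and cofactor synthesis were lower, and 2 folate cycle genes and 1 gene of gluconeogenesis and propionate use were higher.

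Most acute phase genes lay below 0 for any B12. Of 20 found, 16 were below 0, and 5 were lower at an unadjusted p under 0.05 (0.833% over all genes) while 2 were higher (1.65%). Their median was -0.224. The 5 were CRP (-0.43), FGB (-0.42), ITIH4, SAA2 (-0.70) and SAA4 (-0.93), and the 2 were CD14 and HAMP, which encodes the iron hormone hepcidin (0.70). C-reactive protein CRP read 13.35, 13.92 and 13.78 in Ctl, 13.57, 13.09, 13.19 and 13.32 in B12, 13.61, 13.49 and 13.88 in B9, and 12.90 and 13.46 in B9 + B12. It overlapped without folic acid and lay apart by little with it.

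Haptoglobin (HP), the haemoglobin-binding protein that is a main acute phase marker in cattle, read 17.40, 18.04 and 17.37 in Ctl and 17.84, 17.93, 17.49 and 15.07 in B12, the last value being cow 52. It read 18.39, 17.25 and 18.57 in B9 and 16.84 and 15.74 in B9 + B12. Its difference was -1.04, with an unadjusted limma p of 0.072. Of the 20 genes, 5 were lower at an unadjusted p under 0.05 with folic acid (1.37% over all genes) and 1 without it (0.898%). Without cows 57 and 32, 4 were lower (1.59% over all genes in that fit) and 1 higher (1.94%), with a median of -0.119. SAA2 then differed by -0.43 and SAA4 by -0.62, and CRP by -0.08 with folic acid against -0.48 with all arrays. Among the 15 hepatocyte genes 1 was higher (AHSG, 0.18) and 1 lower (FGB), with a median of 0.0671, and ALB differed by 0.09 (95% interval -0.0366 to 0.215).

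**Figure D3:**
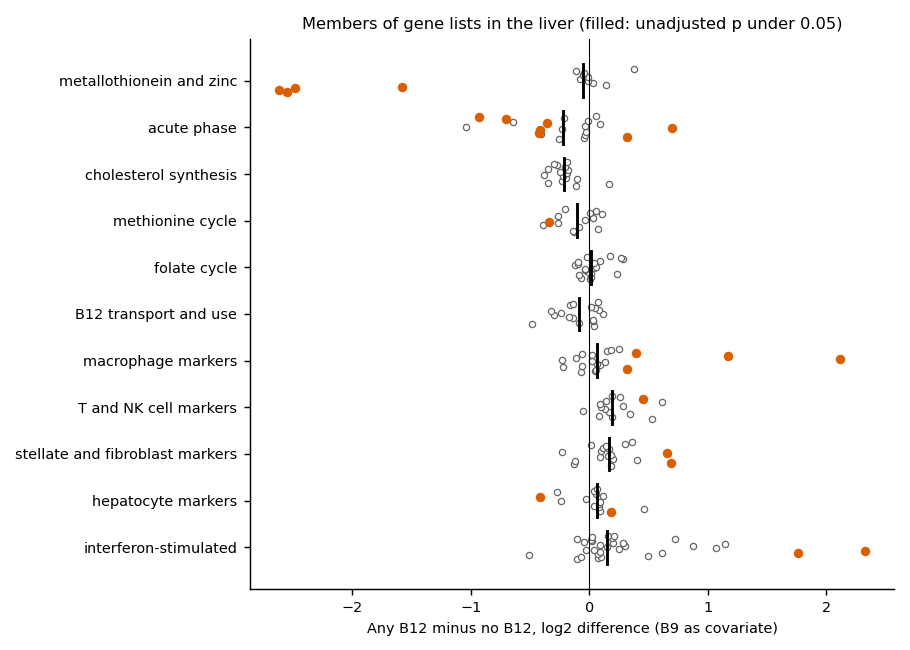
Log2 difference for any B12 against no B12 of each member of 11 gene lists, with filled points for an unadjusted limma p under 0.05 and a bar at the list's median. The metallothionein list has 4 filled points well below 0, the acute phase list lies mostly below 0, and the B12 and folate lists lie around 0 with no filled point.

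The difference of the interferon-stimulated genes in B12 against Ctl did not hold with folic acid. Interferons signal through their receptors to switch on a broad antiviral programme, of which IFI6, IFI27, ISG15 and the ubiquitin ligase HERC6 are part. IFI6 was the only gene called in any contrast of the limma fit, in 1 of 43653 probes (0.00229%). It read 13.36, 13.07 and 12.98 in Ctl and 17.49, 16.25, 16.92 and 16.81 in B12. With folic acid it read 12.65, 12.75 and 13.42 in B9 and 13.70 and 12.83 in B9 + B12. The B12 cows lay more than 2 units above every other liver array, and the groups with folic acid overlapped. IFI6 rose by 3.73 (SE 0.31) in B12 against Ctl, with an adjusted limma p of 0.0158, and differed by 0.32 (SE 0.37) in B9 + B12 against B9, or by 0.13 without cows 57 and 32. The interaction was -3.41, with an unadjusted limma p of 4.0e-05 and an adjusted p of 1.

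The call of IFI6 was lost without cow 42, 43 or 51 of Ctl, without B9 cow 41, or without cow 40 or 52 of B12. It was also lost when slide or scan session was held as a fixed block, though not with slide as a random block. It was lost when B12 and Ctl were fitted alone and with the processed signal. Its difference in B12 against Ctl stayed between 3.38 and 3.94 over all settings run. Within slides it was 3.94 (cow 40 minus 51) and 3.18 (cow 37 minus 43) without folic acid, and -0.594 (cow 38 minus 57) with it.

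IFI27, a mitochondrial interferon-induced protein, had the same pattern. It read 14.12, 14.64 and 13.59 in Ctl, 17.47, 16.55, 17.12 and 17.09 in B12, 12.77, 13.81 and 15.24 in B9, and 14.43 and 13.61 in B9 + B12. With folic acid, B9 cow 57 lay above the other B9 cows and above both B9 + B12 cows. The differences were 2.94 and 0.08, with an interaction p of 0.0052 by limma and an adjusted p of 1. Its other probes gave 2.96 and 0.17, with an interaction p of 0.0056 by limma, and 3.26 and 1.04, with an interaction p of 0.19 by limma. ISG15, the ubiquitin-like modifier, differed by 2.47 without and -0.93 with folic acid. It read 15.92 and 15.40 in B12 cows 36 and 37 but 12.92 and 13.91 in cows 40 and 52, against 11.60, 12.04 and 12.57 in Ctl, and B9 cow 57 read 14.58. With folic acid it differed by -0.48 once cows 57 and 32 were left out.

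HERC6 read 8.04, 8.51 and 8.20 in Ctl, 10.32, 10.89, 8.89 and 9.67 in B12, 8.53, 8.21 and 8.54 in B9, and 7.45 and 7.53 in B9 + B12. The groups lay apart upward without folic acid (1.69) and downward with it (-0.93), with an interaction p of 0.0014 by limma and an adjusted p of 1. OAS1X, an oligoadenylate synthetase, was well above background on 3 of 4 B12 arrays and on 0 of 3 Ctl arrays, and was at least 5.43-fold higher in B12 than in Ctl. It read 10.23 and 11.05 in B12 cows 36 and 37 but 6.45 and 6.02 in cows 40 and 52, and the bound was 3.59-fold without cow 36, 2.97-fold without cow 37, 8.60-fold without cow 40 and 9.49-fold without cow 52. Here the mean of the Ctl arrays was set no lower than the dimmest signal that counted as well above background.

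Over the 31 interferon-stimulated genes found, 29 lay above 0 without folic acid and 6 with it. Unadjusted p-values under 0.05 were reached by 8 higher genes without folic acid (1.1% over all genes) and by 1 lower gene, PARP9, with it (1.37%), at -0.88 and at -0.52 without cows 57 and 32. The list's median was 0.437 without and -0.315 with folic acid, against -0.000798 and 0.0156 over all genes. Of the 31, 11 had an interaction p under 0.05 (3.74% over all genes). The list's mean ran from 10.06 to 10.27 in Ctl and 10.35 to 11.43 in B12, and from 10.04 to 10.55 in B9 and 9.85 to 9.94 in B9 + B12. When cows 57 and 32 were left out, 29 lay above 0 without and 9 with folic acid, the medians were 0.427 and -0.216, and 7 had an interaction p under 0.05 (5.69% over all genes in that fit). MX1 (1.75 and -0.38), RSAD2 (1.35 and -0.18) and USP18 (0.99 and -1.04) had the same signs, and without cows 57 and 32 MX1 differed by 0.09 with folic acid.

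The receptor and signalling genes of the same pathway, 13 in number, had a median of 0.000896 for any B12. The median was -0.0585 without and 0.0982 with folic acid. IRF7, their largest difference, was 0.86 without and -0.32 with folic acid, and its other probe gave 0.84 and -0.25. IFNAR2 (0.25) and IRF8 (0.34) were higher (1.65% over all genes) and IFNAR1 (-0.28) lower (0.833%) at an unadjusted p under 0.05. The other probe of IRF8 differed by 0.00678.

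**Figure D4:**
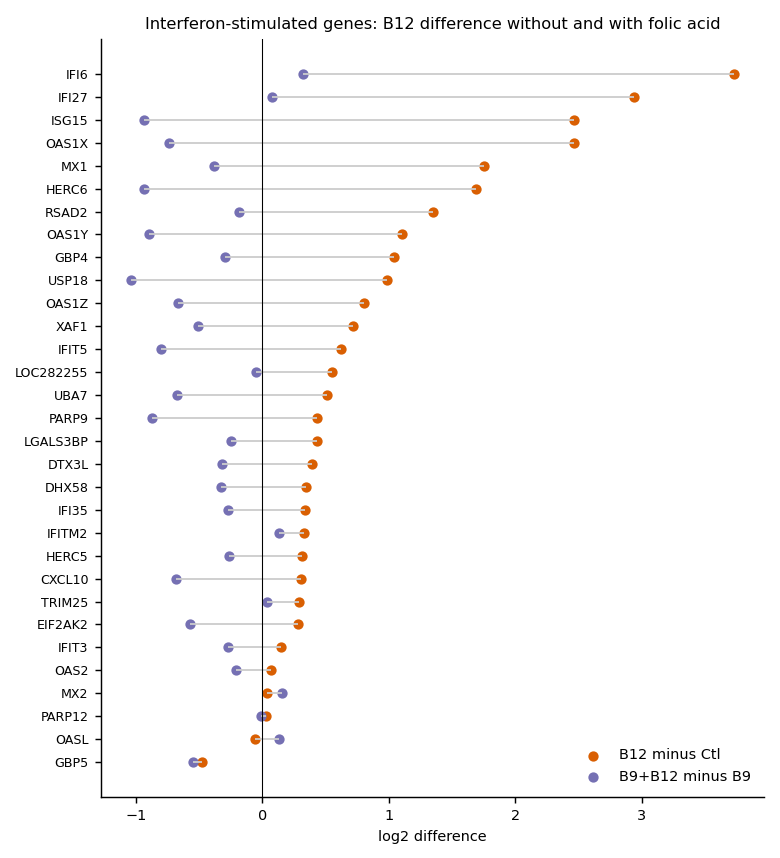
Log2 difference of 31 interferon-stimulated genes for B12 minus Ctl and for B9 + B12 minus B9, 2 points a gene. The points for B12 minus Ctl lie above 0 for 29 genes, and those with folic acid for 6.

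Other genes differed between the strata outside the interferon list. G0S2, an inhibitor of the lipase that starts triglyceride breakdown, read 11.22, 12.50 and 11.84 in Ctl and 14.12, 13.77, 14.43 and 12.79 in B12. It read 13.57, 12.41 and 14.50 in B9 and 12.82 and 13.92 in B9 + B12. The B12 cows lay above Ctl, while the groups with folic acid overlapped. The differences were 1.92 and -0.12, with an unadjusted limma p of 0.040 for the interaction. Leaving out cows 57 and 32 turned the difference with folic acid to 0.92 and raised the interaction p to 0.30 by limma. The muscle sarcomere gene MYOM1 differed by -2.37 and 0.67 (0.23 without both arrays), and DLK1, an imprinted inhibitor of adipocyte differentiation, by -0.82 and 0.77. The other probes of DLK1 ran from -0.91 to -1.80 without folic acid and from 0.57 to 1.91 with it.

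IGFLR1, a receptor of the tumour necrosis factor receptor family, differed by -1.33 without and 2.44 with folic acid. It read 9.59, 9.75 and 7.36 in Ctl, 7.20, 7.20, 7.33 and 8.55 in B12, 7.29, 7.35 and 7.11 in B9, and 9.75 and 9.62 in B9 + B12. Ctl cow 51 lay well below the other Ctl cows and within the range of B12, while the groups with folic acid lay apart. SOCS2, a suppressor of growth hormone signalling, differed by -1.28 and 1.84, with an unadjusted limma p of 0.0040 for the interaction, and LOC404103 by -0.87 and 1.20. The interaction had 0 probes called by limma (0%) and 1769 (4.05%) at an unadjusted p under 0.05. By gene, 666 were higher (2.39%) and 376 lower (1.35%) at that p, and 343 (1.23%) differed between the strata by 2-fold or more.

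The genes that the study itself chose on these arrays for B12 against Ctl are not independent evidence of their direction. Of 19 found here, 12 were higher (1.1% over all genes) and 5 lower (0.898%) at an unadjusted p under 0.05 in that contrast. In B9 + B12 against B9, which shares no array with it, 1 was higher (3.14% over all genes) and 3 were lower (1.37%). The median was 1.00 in the first contrast and -0.0965 in the second, and the latter turned to 0.0384 without cows 57 and 32. The 4 genes were GPNMB, MT1A, LOC613358 and LOC768319. The last pair both carry the synonym MT1E, the name in the study's list, and without LOC768319 the list held 18 genes, of which 1 was higher and 2 lower with folic acid, with medians of 1.03 and -0.0536. IFI6, IFI27, ISG15, HERC6, G0S2, MYOM1, DLK1 and SPP1, described above, also belong to the study's list. SFRP1, a secreted Wnt antagonist, differed by -1.65 and -0.43 at its brightest probe (the latter -1.29 without cows 57 and 32), and by -1.53 and 0.08 and by -1.47 and 0.04 at its other probes. FUT6, listed on the array as FUT5, differed by 1.08 and 0.24, and by -0.28 with folic acid once both arrays were left out. The stress gene SESN2 (0.44 and -0.10) and CDK5R1 (0.51 and 0.02) are also in the study's list. So is the BMP target ID1 (1.00 and -0.01, the latter 0.32 without cows 57 and 32). The glycogen-targeting subunit PPP1R3B (1.05 and -0.66, or -1.73 without those cows) is in it too. The protease MEP1B (1.29 and -0.12, the latter 0.05 without them) is another member. The paper measured some of these genes by quantitative PCR against control cows. It reports no significant effect of B12 for HERC6, IFI27, ISG15, MEP1B, PPP1R3B and SFRP1. For IFI27 and SFRP1 it describes a trend under the vitamin treatments. GPNMB was higher there, but not significantly. MT1A was lower with B12 and with B9 + B12, G0S2 higher with B12, and DLK1 lower with every vitamin treatment.

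In the mammary gland of cows under the same injections, most of the genes above differed less with B12 by value. They were named for their liver values, so smaller gland values and low p-values between the tissues partly follow from that choice. LOC768319 was also dim in the gland, with a mean of 6.43. MT1A differed by -0.44 in the gland against -2.48 in the liver, LOC613358 by -0.12 against -2.55 and LOC768319 by -0.01 against -2.62. GPNMB differed by -0.08 against 2.12, LGALS3 by 0.02 against 1.17 and IFI6 by 0.35 against 2.33. PLAU (0.20 against 0.36) and IGFBP3 (0.07 against 0.37) were nearer to each other in value, and CHI3L1 lay on opposite sides (-0.90 against 0.46). The difference between the tissues had unadjusted limma p-values of 0.0070 for MT1A, 0.0013 for LOC613358, 0.0019 for GPNMB, 0.0036 for IFI6 and 0.33 for PLAU, and all of these had an adjusted p of 1. Over 43653 probes limma called 0 (0%) as different between the tissues, and 775 (1.78%) had an unadjusted p under 0.05.

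**Figure D5:**
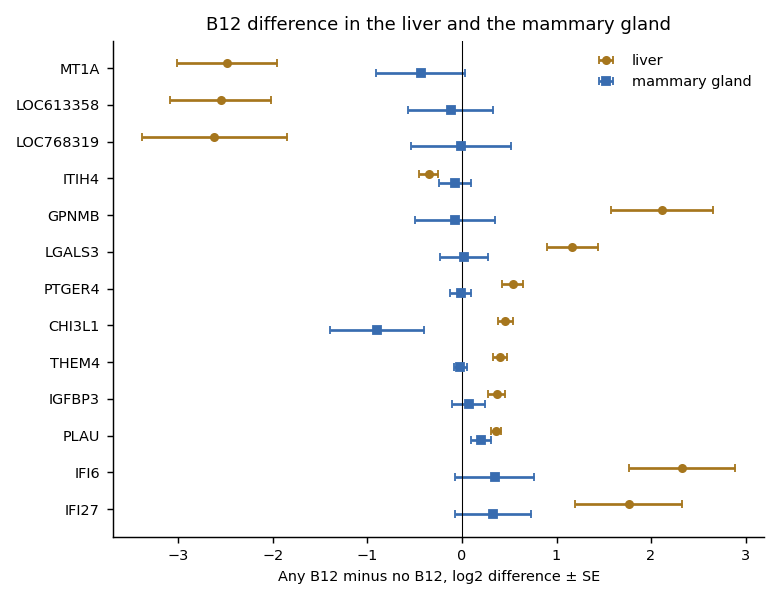
Log2 difference for any B12 against no B12 of 13 genes in the liver (12 arrays) and in the mammary gland (13 arrays), with whiskers of 1 SE. The liver points of the 3 metallothioneins, GPNMB, LGALS3, IFI6 and IFI27 lie farther from 0 than their gland points, which for IFI6 and IFI27 stand at 0.35 and 0.33. The genes were named for their liver values.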

How the data were processed

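The deposited scanner output gave, per the file headers, median spot intensity and local background intensity, read by the authors from 1-colour Agilent bovine arrays with Feature Extraction 10.7.3.1 (version 9.1 in the submitters' processing notes). The authors also deposited log2 values after normexp and normalization between arrays, used as an alternative only. Their medians were 6.974 to 6.980, their centring is not stated, and they ranked with each array's signal (Spearman 0.9814 to 0.9991).

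Here intensities were corrected by normexp (offset 50), outlier spots left out, the 12 liver arrays normalized by quantiles and probes averaged, in limma 3.58.1 under R 4.3.3. B12 effects were fitted with B9 as a covariate, and within each B9 stratum from 4 groups, with Benjamini-Hochberg adjustment over 43653 probes. A call needed an adjusted p of 0.05 or less and 2-fold. Fitted differences need not equal those of the group means, since groups were unequal. A gene is its brightest probe (27841 names). The array's accessions were named through RefSeq tables of the current assembly, which gave 53.854% of probes a current symbol. Genes named were the 10 largest higher and lower among those with a symbol that lay apart in both strata, the 3 largest each way by interaction, up to 3 members of each of 29 lists, and the study's B12 genes, besides members named to describe a list. These members and lists were chosen with earlier results of these data known. Precision is limited by the number of arrays. On simulated data the scripts were tested with 200 changed probes.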

Additional observations from a re-analysis of the deposited data

Results flagged for a closer look

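Among 54 genes named above, 162 sets of arrays were searched for 1 array far from the others. A set was the 4 B12 arrays, the 6 arrays with B12 or the 6 without. Of these 13 had one, where chance gives about 1 in 20 separate sets of 1 group. The sets of 6 pool 2 treatment groups, and the 4 B12 arrays recur in the 6 with B12, so that rate is a rough guide. The measure is the gap from that array to its nearest neighbour, divided by the range of the set. Of the 13, 5 were cow 32 and 2 were cow 57, the arrays that stood apart as a whole.

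Cow 32 was the lowest of the 6 arrays with B12 for NFU1 (gap 0.831 of the range, 9.97 against 10.3) and MEP1B (0.679, 10.6 against 11.8). It was the highest for MS4A8 (0.700), TAGAP (0.632) and CD14 (0.859, 14.1 against 13.2). Cow 57 was the highest of the arrays without B12 for ISG15 (0.659, 14.6 against 12.6) and CDK5R1 (0.695). Cow 52 was the lowest of the 4 B12 arrays for the acute phase genes HP (0.846, 15.1 against 17.5) and SAA2 (0.988, 17.0 against 18.3). It was the highest of them for IGFLR1 (0.902, 8.55 against 7.33) and for GPAM, the first enzyme of glycerolipid synthesis (0.978). GPAM in cow 52 also stood out over all 6 arrays with B12 (0.724). Cow 43 was the highest array without B12 for HRC (0.779).

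HERC6 differed between the strata by -2.62, with every B12 array above every Ctl array (1.69) and every B9 + B12 array below every B9 array (-0.934). Its interaction had an unadjusted limma p of 0.0014 and an adjusted p of 1, so it did not pass.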

How the results depend on the processing

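Any B12 against no B12 had 0 calls in every setting except Cyber-T, which gave 3. The single call for B12 against Ctl became 0 with the processed signal, slide as a fixed block, scan session as a block (chosen after seeing the data) and a fit of 2 groups only, and 29 with Cyber-T. With arrays left out in turn it ran from 0 to 1. For B9 + B12 against B9, 0 became 8 with Cyber-T and 5 without cows 57 and 32, and 0 to 27 with arrays left out in turn (7 without cow 32, 27 without cow 38, where the lone array of the group is assumed to vary like the others). The interaction went from 0 to 2 without cows 57 and 32, and from 0 to 11 with arrays left out in turn (4 without cow 32, 11 without cow 38). The 15 genes at 2-fold the same way became 82 with the processed signal (64 opposite), 25 with slide as a block (30 opposite), 26 without cows 57 and 32, and 52 at 1.5-fold (65 opposite). With arrays left out in turn they ran from 13 to 24, the most without B9 cow 57. The causes were not tested.

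The liver and gland arrays of a cow pair by animal. With cow as a random replicate block the tissue comparison kept 0 calls (smallest adjusted p 0.766, 751 probes at an unadjusted p under 0.05, cow correlation -0.0146), and no setting changed that 0, though without B9 cow 39 the smallest adjusted p was 1.44e-07, at a difference under 2-fold. For 67 named results (differences for any B12 and for B12 against Ctl, and interactions) with 1830 values under alternatives, 0 changed sign, 10 lost a call (all of them IFI6 in B12 against Ctl) and 13 gained one (with Cyber-T). Sizes varied more than signs for some dim probes. In B12 against Ctl, FUT6 ran from 0.643 to 3.85 and CDK5R1 from 0.405 to 1.59. The mean spot signal was not run. With 2 arrays in B9 + B12 and both doubtful arrays on the folic acid side, differences with folic acid are less precise than those without. They were not among these 67 results, and several changed sign without cows 57 and 32, as given beside them.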

Other observations

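Of 15 T and natural killer cell genes, 14 lay above 0 for any B12, with a median of 0.188, and the median was 0.0855 without and 0.344 with folic acid. The list's mean was 9.22 to 9.64 in B9 + B12, the latter in cow 32, against 8.70 to 9.06 on all arrays without B12. In B12 it was 8.72 to 9.09, which overlapped with the arrays without B12. The cytotoxic granule protease GZMB differed by -0.11 and 1.66, and LCK, the T cell receptor kinase, by 0.45 for any B12. Of 18 stellate cell and fibroblast genes 17 lay above 0 with folic acid and 10 without, with medians of 0.386 and 0.0181. Their mean was 10.12 to 10.14 in B9 + B12 against 9.49 to 9.87 in B9. LOXL4, a collagen crosslinking enzyme, differed by 0.65 and 0.68, and COL1A2, a chain of type I collagen, by 0.19 and 1.41. The collagen genes did not all follow COL1A2. For any B12, COL1A2 differed by 0.69 and COL6A1 by 0.40, but COL1A1 by -0.13 and COL3A1 by -0.12. Without cows 57 and 32 the medians with folic acid were 0.190 for T and natural killer cell genes and 0.439 for stellate genes. The neutrophil list had an overlapping mean of 7.70 to 7.94 in B9 + B12 against 7.78 to 8.19 in B9. Hepatocyte genes lay above 0 with folic acid for 13 of 15, and for 10 without cows 57 and 32.

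Cholesterol synthesis genes lay below 0 for 15 of 16 members, with a median of -0.215, from -0.459 without and 0.0955 with folic acid. Leaving both arrays out, the median was -0.432, and the value with folic acid changed sign to -0.378. In the hepcidin and BMP list HAMP was higher (0.81 without and 0.54 with folic acid, the latter 0.90 without both arrays) and TFR2, a sensor of iron-loaded transferrin, lower (-0.33). Of the growth and imprinted genes 14 of 15 lay above 0 with folic acid and 5 without. VLDLR, a lipoprotein receptor in the list of amino acid stress genes, differed by 0.53 (0.31 and 0.85, and 0.40 and 0.58 for any B12 and with folic acid once both arrays were left out), and its other probes by 0.0036 and 0.00824 for any B12.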
